A study of Oryctolagus cuniculus with 3 samples.

Results

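The genes described here are a list of 31 sterol and fatty acid synthesis genes and their regulators, taken by symbol from the gene column of the tables. Of these, 25 were found among 20536 gene names, and all 25 were measured. IDI1 and CYP51A1 stand in the tables only under LOC names that the RefSeq gene table links to those symbols; their values are given apart and are in none of the counts. DHCR7, FASN, MVD and SCD were not analysed here.

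Sterols and fatty acids are built from cytosolic acetyl-CoA. The mevalonate pathway turns acetyl-CoA into farnesyl diphosphate, the squalene branch turns that into cholesterol, and acetyl-CoA carboxylase with fatty acid synthase makes fatty acids. In animal cells both routes are driven by the SREBP transcription factors, which the escort protein SCAP carries out of the endoplasmic reticulum and which INSIG proteins hold back there when sterols are plentiful. Stratified epithelia draw on these lipids for new membranes while they divide and for their surface barrier as they differentiate.

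RNA was sequenced from RCE1(5T5), a rabbit corneal epithelial cell line, at 3 stages, with 1 library each. Day 4 cultures were non-differentiated, day 6 cultures were committed to differentiation and day 10 cultures were terminally differentiated. All 3 cultures grew on mitomycin C-treated mouse 3T3 feeder cells in DMEM-F12 with fetal calf serum, transferrin, insulin, adenine, hydrocortisone, triiodothyronine, EGF and cholera toxin. The feeders were lifted off with EDTA before the RNA was extracted. No difference below has a replicate check, the stages were compared without a statistical test, and stage, day and library cannot be told apart. In bulk RNA, fewer cells of a type and less RNA per cell cannot be told apart either.

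Levels are fragments scaled to library size (CPM, counts per 1e6 with TMM factors). Ratios between 2 genes, and ranks, use the deposited TPM, which also divides by coding length. Sums in CPM and shares of fragments are not divided by length, so longer genes weigh more in them. The libraries held between 10171633 and 12582648 fragments after rounding. Gene names with 1 CPM or more in any library, 12818 in all, count as measured. Rose and fell are used when the difference of log2(CPM + 1) between 2 libraries reached 2-fold, a scale that understates the change of low genes. Folds are ratios of CPM, and brackets hold exact 95% Clopper-Pearson intervals, which cover counting error only. Of 9 markers listed for corneal epithelium, 6 rose and 0 fell between days 4 and 10, against 17.1% and 15.8% of all measured genes. Those that rose were KRT3, KRT12, KRT15, PAX6, TP63 and KRT13, the last read by a LOC name. KRT5, a basal epithelial keratin, was at 15650, 23370 and 13550 CPM on days 4, 6 and 10. KRT3, a keratin of the corneal epithelium, was at 149.6, 954 and 2018 CPM. KRT12, also in the list, had 0 fragments on day 4 and was at 19.3 and 121 CPM on days 6 and 10. CDH1 and EPCAM were lower on day 10 than on day 4, within 2-fold: CDH1 was at 291, 209 and 155 CPM and EPCAM at 127, 95.1 and 95.3 CPM.

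The list moved little at commitment and mostly downwards after it. By day 6, 2 of the 25 members rose and 0 fell, against 8.06% and 6.73% of all measured genes. Between day 6 and day 10, 1 member rose and 8 fell, against 8.25% and 7.10% of all measured genes. Over the whole interval 4 rose and 8 fell, against 17.1% and 15.8%. The median difference of the members on the log2 scale was 0.28 between days 4 and 6, -0.67 between days 6 and 10 and -0.42 between days 4 and 10. Over all measured genes these medians were 0.00, -0.01 and 0.01.

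The scaling moves that background. Without TMM factors the median of all genes lay at -0.14 between days 4 and 6 and at -0.11 between days 4 and 10, and with the deposited TPM at -0.30 and -0.31. The share of risers among all genes that changed between days 4 and 6 was 54.5%, against 39.3% without TMM factors and 25.5% with TPM. Between days 4 and 10 it was 52.0%, against 31.9% with TPM. Every member said below to have risen or fallen between 2 days did so under both of these scalings and with DESeq2 size factors. The count of members past 2-fold downwards between days 4 and 10 was larger, 11 without TMM factors and 12 with TPM. Of all measured genes, 19% and 23.9% were so. The members added were SREBF2, ACACA and AACS under both scalings and STARD4 with TPM.

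In 15 of the 25 members the day 6 library was the highest, in 6 the day 4 library and in 4 the day 10 library. Which early library was the higher depends on the scaling: without TMM factors 11 members were highest on day 6 and 10 on day 4, and with TPM 8 were highest on day 6 and 13 on day 4, with 1 tied. The day 10 library was the lowest for 16 members, the day 4 library for 9 and the day 6 library for 0; with TPM these counts were 18, 7 and 0. All members together took 0.298% of the fragments on day 4 [0.295 to 0.301], 0.297% on day 6 [0.294 to 0.300] and 0.176% on day 10 [0.173 to 0.178].

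Fibroblast and feeder markers moved in both intervals, and cell cycle genes mostly after day 6, when members fell. The 15 fibroblast and feeder markers summed to 5014, 3183 and 1730 CPM on days 4, 6 and 10; of the 14 measured, 6 fell and 1, THY1, rose between days 6 and 10, and LUM was at 0 in all 3 libraries. Of 12 S phase genes 10 fell and 0 rose between days 6 and 10, with a median of -1.40, and their sums were 2481, 1890 and 833.8 CPM. Over the whole interval, 13 of the 14 measured fibroblast markers fell and 1 rose, with a median of -1.84, and 10 of the 12 S phase genes fell and 0 rose, with a median of -1.94. The part of either in the falls of the members was not tested. Between days 4 and 6, when 0 members fell, 4 of the 14 measured fibroblast markers and 1 of the 12 S phase genes fell. The median difference of the fibroblast markers was -0.86 then, with all 14 below 0. Between days 6 and 10 it was -0.89, with 12 of the 14 below 0. For the S phase genes the median between days 4 and 6 was -0.37. Of all measured genes, 6.73% fell between days 4 and 6, 7.10% between days 6 and 10 and 15.8% between days 4 and 10. The 1 S phase gene that fell by day 6 is near the share of all genes.

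**Figure D1:**
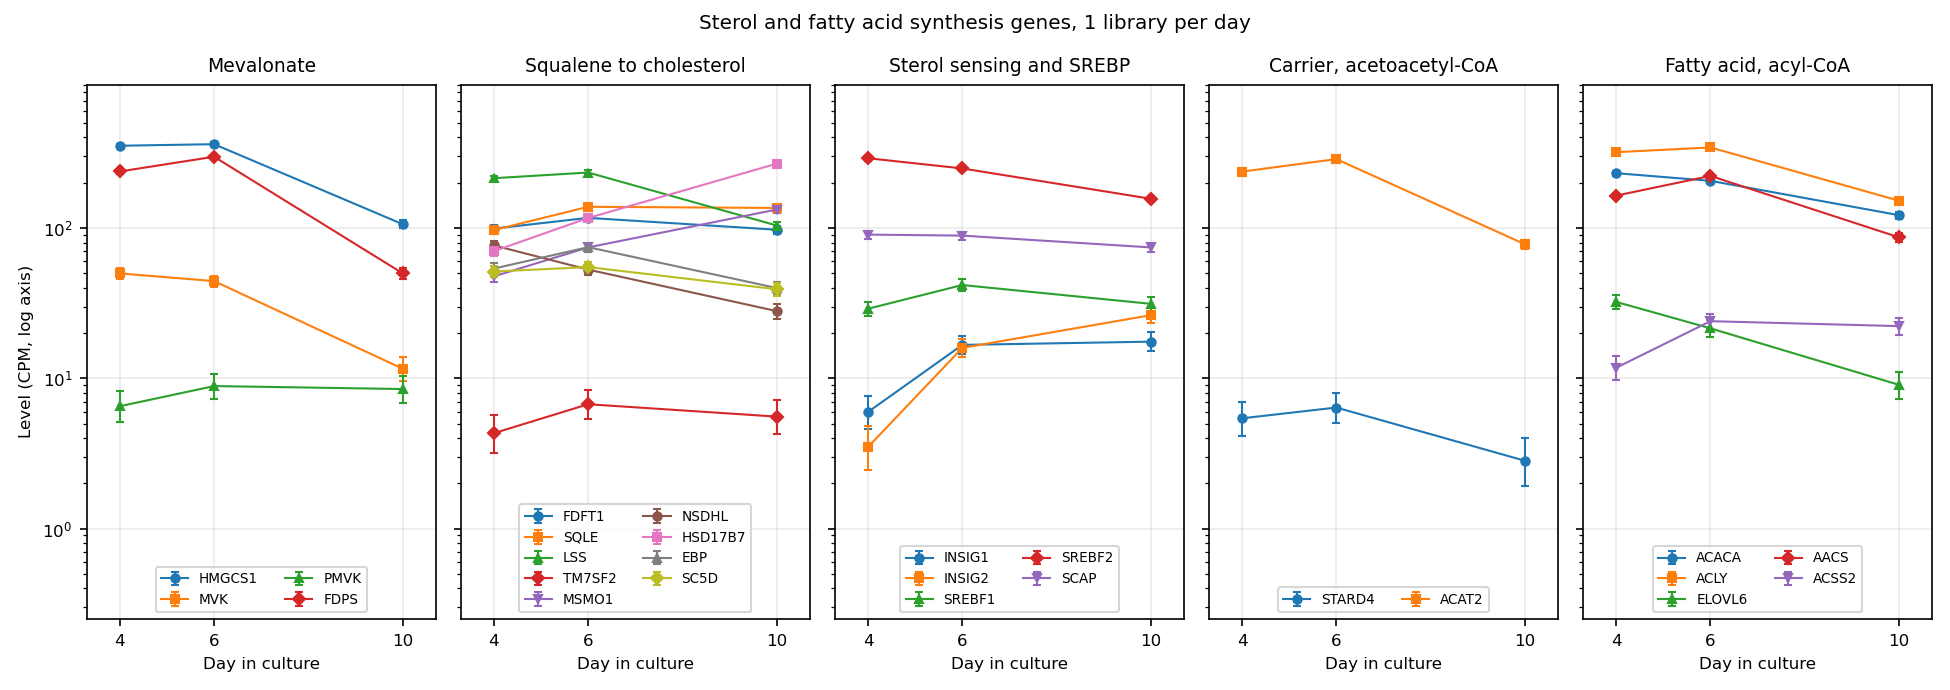
Level of each of the 25 members (CPM, log axis) against day in culture, in 5 panels by role; points are the 1 library of each day and bars are 95% Poisson intervals, which cover counting error only. HMGCS1, MVK, FDPS and ACAT2 lie lowest on day 10, whereas MSMO1, HSD17B7 and INSIG2 lie highest on day 10.

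The enzymes at the head of the pathway fell after commitment. ACAT2, the cytosolic thiolase that makes acetoacetyl-CoA, was at 237, 287 and 77.9 CPM on days 4, 6 and 10. HMGCS1, which joins acetoacetyl-CoA and acetyl-CoA into HMG-CoA, was at 352, 361 and 106 CPM. The first 2 libraries were close for both genes and the day 10 library stood below them. Between day 6 and day 10 ACAT2 fell 3.69-fold [3.42 to 3.98] and HMGCS1 fell 3.41-fold [3.19 to 3.64].

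Mevalonate kinase, MVK, which phosphorylates mevalonate, was at 49.8, 44.3 and 11.6 CPM on days 4, 6 and 10. Its fall from day 6 was 3.82-fold [3.14 to 4.69]. PMVK, the kinase that acts next, did not pass 2-fold: it was at 6.52, 8.87 and 8.48 CPM, and its day 10 to day 6 ratio was 0.955 [0.714 to 1.28]. This was a low gene, with between 71 and 107 fragments per library.

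FDPS, which makes farnesyl diphosphate, the branch point towards sterols and protein prenylation, fell more than any other member. It was at 238, 298 and 49.9 CPM on days 4, 6 and 10. The fall between days 6 and 10 was 5.96-fold [5.44 to 6.55], and between days 4 and 10 it was 4.76-fold [4.33 to 5.23]. By TPM, FDPS ranked 705th of the measured genes on day 4, 586th on day 6 and 2593rd on day 10. IDI1, which isomerises the building block that FDPS joins, was read by its LOC name at 45.2, 30.9 and 13.3 CPM, and its fall between days 6 and 10 was 2.33-fold [1.91 to 2.85].

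Summed over the 4 mevalonate members, the level per coding length was 523.6 TPM on day 4, 455.2 TPM on day 6 and 112.5 TPM on day 10. Those genes and ACAT2 held 31.8% of all fragments of the members on day 4 [31.2 to 32.3], 32.2% on day 6 [31.7 to 32.7] and 14.1% on day 10 [13.6 to 14.6]. This grouping was chosen after the values were seen.

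**Figure D2:**
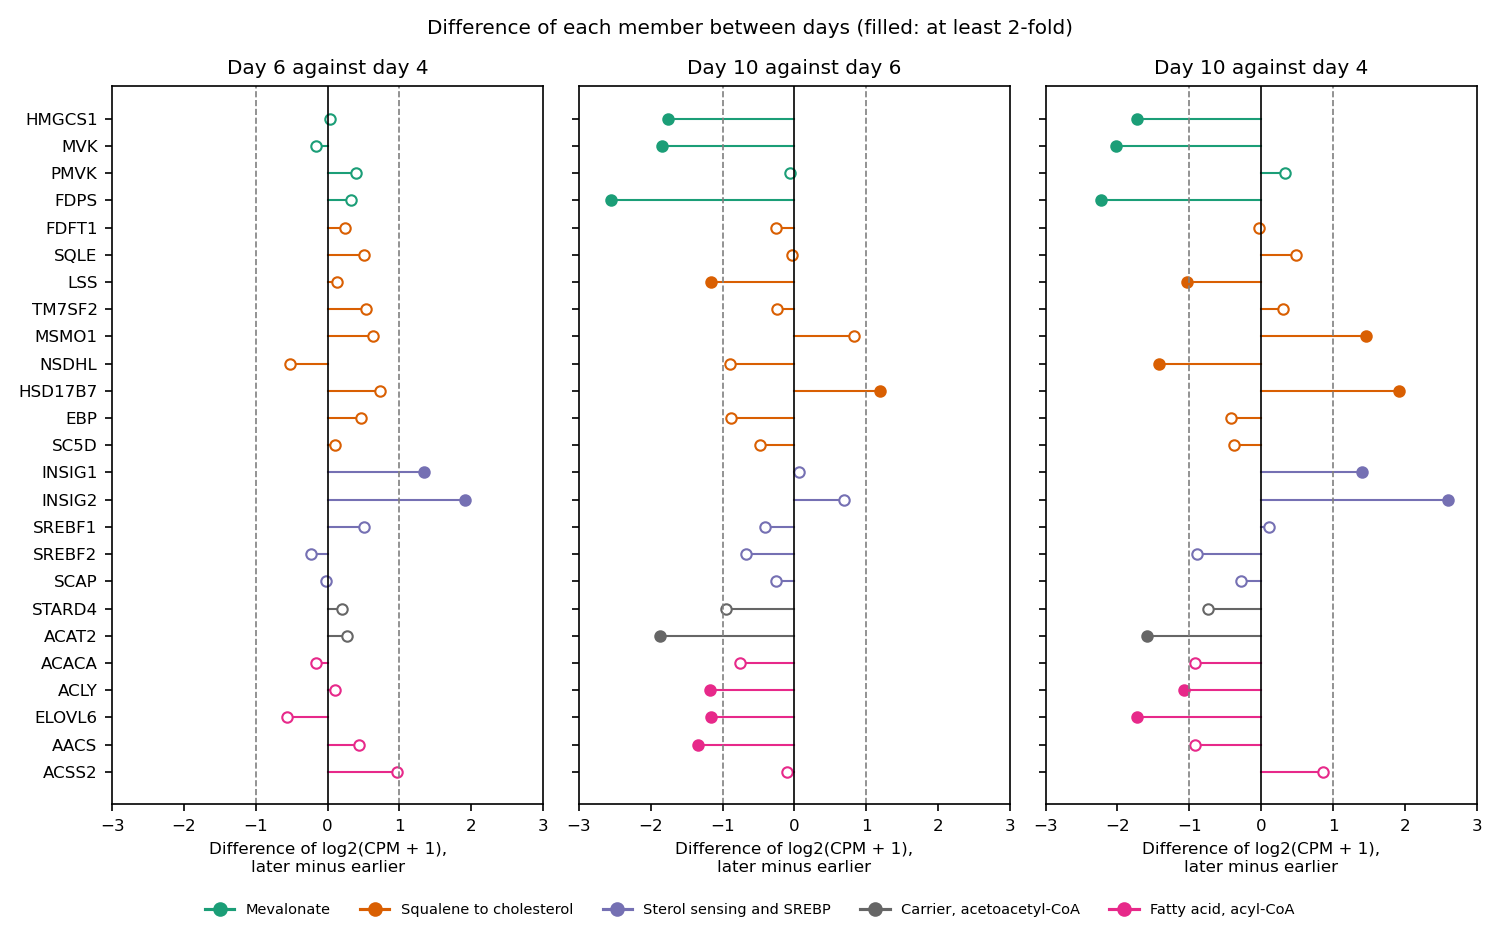
Difference of log2(CPM + 1), later minus earlier day, for each of the 25 members in pathway order; filled points are past 2-fold (dashed lines) and open points are not. Between days 6 and 10 the 8 members that fell include HMGCS1, MVK, FDPS and ACAT2, and HSD17B7 is the 1 member that rose.

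The 9 squalene branch members changed in both directions. By day 6, 0 rose and 0 fell, between days 6 and 10, 1 rose and 1 fell, and between days 4 and 10, 2 rose and 2 fell. These are small counts near the shares of all measured genes, which were 8.25% and 7.10% between days 6 and 10 and 17.1% and 15.8% between days 4 and 10. Summed, these 9 enzymes were at 586.1 TPM on day 4, 573.3 TPM on day 6 and 611.4 TPM on day 10, a narrower range than that of the mevalonate sum. In CPM the sums were 713.6, 868.4 and 849.6.

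The enzymes that open the branch stayed within 2-fold. FDFT1, squalene synthase, was at 99.0, 117 and 97.3 CPM on days 4, 6 and 10. SQLE, the epoxidase that adds oxygen to squalene, was at 96.8, 138 and 136 CPM, and its day 4 library was the lowest: the ratio was 1.43 between days 6 and 4 [1.32 to 1.55], 0.982 between days 10 and 6 [0.914 to 1.05] and 1.403 between days 10 and 4 [1.295 to 1.52].

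LSS, which closes the sterol rings to give lanosterol, fell. It was at 214, 234 and 104 CPM on days 4, 6 and 10, a fall of 2.25-fold after day 6 [2.10 to 2.42]. CYP51A1, the lanosterol demethylase read by its LOC name, was at 136, 134 and 63.8 CPM, a fall of 2.10-fold after day 6 [1.92 to 2.30]. For both genes the day 10 library stood below the other 2. TM7SF2, a sterol reductase, was low, at 4.31, 6.72 and 5.56 CPM, from 47 to 81 fragments.

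A further 3 enzymes that strip methyl groups from the sterol ring moved apart. MSMO1, the methyl sterol oxidase, was at 47.6, 74.2 and 133 CPM on days 4, 6 and 10. HSD17B7, the keto-reductase of the same step, was at 70.1, 117 and 268 CPM. NSDHL, the dehydrogenase that works between them, was at 76.5, 52.8 and 28.0 CPM.

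Both MSMO1 and HSD17B7 were higher in each later library, and NSDHL was lower in each later library. Between days 4 and 10 MSMO1 rose 2.78-fold [2.52 to 3.09] and HSD17B7 rose 3.82-fold [3.52 to 4.14]. NSDHL fell 2.74-fold over the same interval [2.39 to 3.13]. HSD17B7 also rose past 2-fold between days 6 and 10, by 2.30-fold [2.15 to 2.45].

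Within a library the ratios between these enzymes shifted. The HSD17B7 to NSDHL ratio of TPM was 1.13, 2.64 and 11.8 on days 4, 6 and 10. The MSMO1 to LSS ratio of TPM was 0.556, 0.819 and 3.22, and the MSMO1 to FDPS ratio was 0.240, 0.304 and 3.20. MSMO1 and HSD17B7 together held 16.5% of the fragments of the 9 squalene branch members on day 4 [15.7 to 17.3], 21.97% on day 6 [21.2 to 22.8] and 47.1% on day 10 [46.1 to 48.2]. These pairs were chosen after the values were seen, and ratios within a library do not depend on the scaling between libraries.

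The closing enzymes stayed within 2-fold. EBP, a sterol isomerase, was at 53.7, 74.5 and 39.8 CPM on days 4, 6 and 10, and SC5D, a sterol desaturase, was at 51.3, 54.9 and 39.1 CPM. Both were lowest on day 10; the day 10 to day 6 ratio was 0.535 for EBP [0.475 to 0.601] and 0.712 for SC5D [0.628 to 0.806].

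Among the regulators, the INSIG pair rose at commitment, and these were the 2 members that did. INSIG1, itself a target of SREBP in mammalian cells, was at 5.97, 16.7 and 17.5 CPM on days 4, 6 and 10, from 65, 201 and 186 fragments. INSIG2, its paralog, was at 3.49, 15.9 and 26.3 CPM, from 38, 192 and 279 fragments. For both genes the day 4 library stood below the other 2.

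By day 6 INSIG1 rose 2.80-fold [2.10 to 3.76] and INSIG2 rose 4.57-fold [3.21 to 6.65]. With a pseudocount of 5 the INSIG1 call by day 6 was lost. After day 6 neither passed 2-fold, with ratios of 1.05 for INSIG1 [0.856 to 1.29] and 1.65 for INSIG2 [1.37 to 1.99]. Over the whole interval INSIG2 rose 7.54-fold [5.36 to 10.9], the largest rise of any member, and INSIG1 rose 2.94-fold [2.20 to 3.96]. The INSIG1 to INSIG2 ratio of TPM was 1.30, 0.791 and 0.469 on days 4, 6 and 10.

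The transcription factor genes and the escort stayed within 2-fold. SREBF2, which codes for the SREBP that mainly drives sterol synthesis, was at 291, 249 and 156 CPM on days 4, 6 and 10. SREBF1, whose products mainly drive fatty acid synthesis, was at 29.0, 41.7 and 31.3 CPM. SCAP was at 90.3, 88.9 and 74.2 CPM.

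SREBF2 was lower in each later library, and its day 10 to day 4 ratio was 0.537 [0.506 to 0.570]; without TMM factors and with TPM it passed 2-fold. The SREBF2 to SREBF1 ratio of TPM was 6.11, 3.65 and 3.13 on days 4, 6 and 10. The INSIG1 and INSIG2 share of the fragments of the 5 genes of sensing and SREBP handling was 2.25% on day 4 [1.84 to 2.73], 7.91% on day 6 [7.18 to 8.70] and 14.3% on day 10 [13.2 to 15.6]. STARD4, a carrier of cholesterol between membranes, was low, at 5.42, 6.39 and 2.83 CPM from 59, 77 and 30 fragments. Its ratio between days 10 and 6 was 0.443 [0.280 to 0.683], a difference of -0.95 on the log2(CPM + 1) scale that passed 2-fold with TPM or a pseudocount of 0.1.

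Of the 5 fatty acid and acyl-CoA genes found, 3 fell and 0 rose between days 6 and 10, against 7.10% and 8.25% of all measured genes. Between days 4 and 10, 2 fell and 0 rose, against 15.8% and 17.1%. Over that interval ACACA and AACS also passed 2-fold downwards without TMM factors and with TPM, where 19% and 23.9% of all measured genes did. FASN and SCD, listed in the same group, were not analysed. ACLY, which makes cytosolic acetyl-CoA from citrate, was at 319, 343 and 152 CPM on days 4, 6 and 10. AACS, which makes acetoacetyl-CoA from ketone bodies, was at 164, 222 and 86.6 CPM. ELOVL6, which lengthens saturated and monounsaturated fatty acids, was at 32.2, 21.5 and 9.04 CPM.

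After day 6 ACLY fell 2.26-fold [2.14 to 2.40], AACS fell 2.56-fold [2.38 to 2.77] and ELOVL6 fell 2.38-fold [1.87 to 3.04]. With a pseudocount of 5 the ELOVL6 call was lost. ELOVL6 had the lowest difference of all members between days 4 and 6, -0.56 on the log2 scale, and between days 4 and 10 it fell 3.56-fold [2.84 to 4.51].

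ACACA, acetyl-CoA carboxylase, was at 231, 206 and 122 CPM on days 4, 6 and 10. Its day 10 to day 4 ratio was 0.526 [0.491 to 0.562], a difference that passed 2-fold without TMM factors and with TPM. ACSS2, which makes acetyl-CoA from acetate, had another course, at 11.8, 24.0 and 22.2 CPM. Its ratio between days 6 and 4 was 2.04 [1.65 to 2.53], a difference of 0.97 on the log2(CPM + 1) scale, just under 2-fold there and past it with a pseudocount of 0.1. The ACLY to ACSS2 ratio of TPM was 17.6, 9.31 and 4.29 on days 4, 6 and 10.

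**Figure D3:**
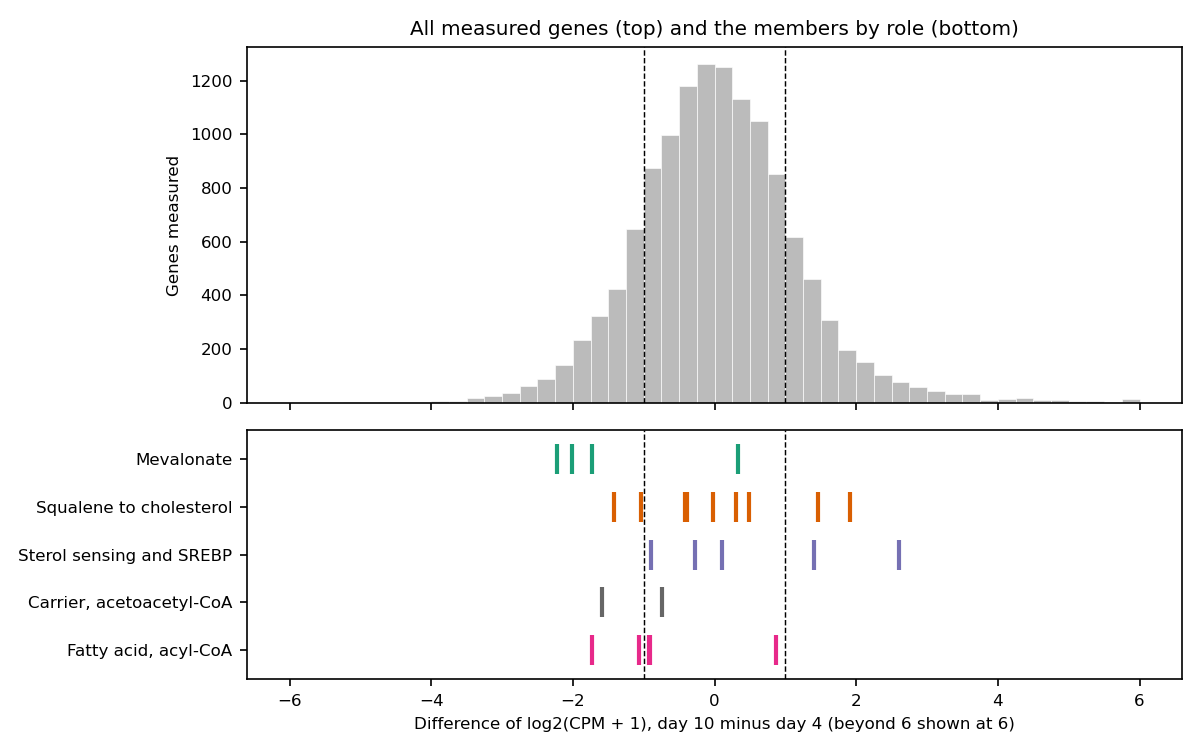
Number of measured genes by difference of log2(CPM + 1), day 10 minus day 4 (top), and the same difference of each of the 25 members as ticks, by role (bottom); dashed lines mark 2-fold. The members reach from -2.23 for FDPS to 2.60 for INSIG2, with 8 below and 4 above the 2-fold lines.

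The tables list 57 coding sequences for the 25 members, from 1 for 10 members to 6 for MVK and ACACA, and fractional counts show that fragments were divided among sequences. In every member that rose or fell between 2 days, all of its coding sequences moved the same way between them. This holds by construction for members with 1 sequence. Sequences of the same gene divide fragments between them and are not separate readings: the 2 of HMGCS1 had equal counts in each library. The 6 MVK coding sequences had day 10 to day 6 ratios between 0.233 and 0.316, the 3 of LSS between 0.424 and 0.454, and the 2 of ACAT2 between 0.267 and 0.277. For INSIG2, the day 6 to day 4 ratios of its 4 coding sequences lay between 4.04 and 4.65. The 2 of PMVK differed in direction between days 6 and 10, with ratios of 0.780 and 1.07. INSIG1 and HSD17B7 each have 1 coding sequence but fractional counts in at least 1 library, so part of their fragments may have been divided with a sequence of another name. In the RefSeq annotation of another assembly the ACAT2 gene overlaps TCP1, and whether counting used strand is not given in the sources used here.

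Genes around these pathways were read from 4 lists drawn up for this report. Of 11 genes of the isoprenoid branch, which uses farnesyl diphosphate for prenylation, dolichol and ubiquinone, 0 rose and 0 fell between days 4 and 6. Of the same genes 1 rose and 1 fell between days 6 and 10, and 1 rose and 3 fell between days 4 and 10. Of all measured genes, 8.06% rose and 6.73% fell between days 4 and 6. The shares were 8.25% and 7.10% between days 6 and 10, and 17.1% and 15.8% between days 4 and 10. The counts of this list are within a few genes of those shares. PDSS1, a subunit of the synthase for the ubiquinone side chain, was at 44.8, 25.1 and 4.80 CPM on days 4, 6 and 10, and its fall between days 4 and 10 was 9.32-fold [6.98 to 12.7]. ICMT, which methylates prenylated proteins, was at 35.9, 29.5 and 14.6 CPM and fell 2.46-fold [2.04 to 2.98]. NUS1, a subunit of the dolichol-chain synthase named after its values were seen, was the other that fell, with 33.9, 20.7 and 14.4 CPM.

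GGPS1, which makes geranylgeranyl diphosphate, rose 2.17-fold between days 4 and 10 [1.68 to 2.82], with 8.17, 6.97 and 17.7 CPM on days 4, 6 and 10. Of 8 genes of SREBP processing and sterol-regulated degradation, among them the site proteases MBTPS1 and MBTPS2, 0 rose and 0 fell in each of the 3 comparisons. Counts of 0 among 8 genes are within a few genes of the shares of all measured genes. The differences of these 8 genes between days 4 and 10 lay between -0.48 and 0.31 on the log2 scale.

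Of 16 listed genes of fatty acid modification and activation 15 were measured. Between days 4 and 6, 3 rose and 0 fell, against 8.06% and 6.73% of all measured genes. Between days 6 and 10, 2 rose and 3 fell, against 8.25% and 7.10%. Between days 4 and 10, 2 rose and 1 fell, against 17.1% and 15.8%. These counts are within a few genes of those shares. ME1, the malic enzyme that supplies NADPH, was at 13.5, 7.63 and 34.8 CPM and rose 4.56-fold between days 6 and 10 [3.62 to 5.79]. The desaturases FADS1 and FADS2, chosen after their values were seen, peaked on day 6. FADS1 was at 38.4, 77.2 and 32.8 CPM and FADS2 at 22.2, 45.9 and 20.3 CPM, and after day 6 FADS1 fell 2.36-fold [2.08 to 2.67] and FADS2 fell 2.25-fold [1.92 to 2.65]. Also named after their values were seen, SLC25A1, the mitochondrial citrate carrier that feeds ACLY, rose by day 6, with 69.3, 143.1 and 99.2 CPM, and the desaturase SCD5 had 6, 26 and 6 fragments. The other 2 that changed between days 4 and 10 were low: MCAT, which loads malonyl groups in mitochondria, fell, with 9.91, 5.56 and 4.05 CPM, and the transcription factor gene MLXIPL had 2, 0 and 17 fragments.

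Of 15 measured genes of sterol uptake, efflux and storage, 4 rose and 1 fell between days 4 and 6, against 8.06% and 6.73% of all measured genes. Between days 6 and 10, 2 rose and 0 fell, against 8.25% and 7.10%, and between days 4 and 10, 4 rose and 0 fell, against 17.1% and 15.8%. The later counts are within a few genes of those shares. Their median difference was 0.59 on the log2 scale between days 4 and 10. ABCA1, which exports cholesterol from cells, was at 7.25, 18.3 and 43.9 CPM on days 4, 6 and 10. LPIN2, a phosphatidate phosphatase of glycerolipid synthesis, was at 37.0, 68.3 and 189 CPM.

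Both were higher in each later library. Between days 4 and 10 ABCA1 rose 6.05-fold [4.76 to 7.79] and LPIN2 rose 5.11-fold [4.59 to 5.70]. The other 2 that rose, named after their values were seen, were DGAT2, which makes triglycerides, and STARD3, a sterol carrier of late endosomes. DGAT2 was at 7.25, 19.2 and 29.7 CPM and rose 4.09-fold [3.19 to 5.31]. STARD3 was at 23.2, 41.7 and 56.2 CPM and rose 2.42-fold [2.09 to 2.82]. By day 6, ABCA1, DGAT2, LPIN1 and NPC2, a sterol carrier of lysosomes, rose, and SOAT1, which esterifies cholesterol for storage, fell, with 30.6, 14.8 and 21.5 CPM. Some of these calls by day 6 lay close to 2-fold: the difference was 1.07 on the log2 scale for NPC2, 1.04 for SLC25A1, and 1.01 for FADS2, SOAT1 was as close to the line on the lower side, and other scalings were tried for the members only.

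**Figure D4:**
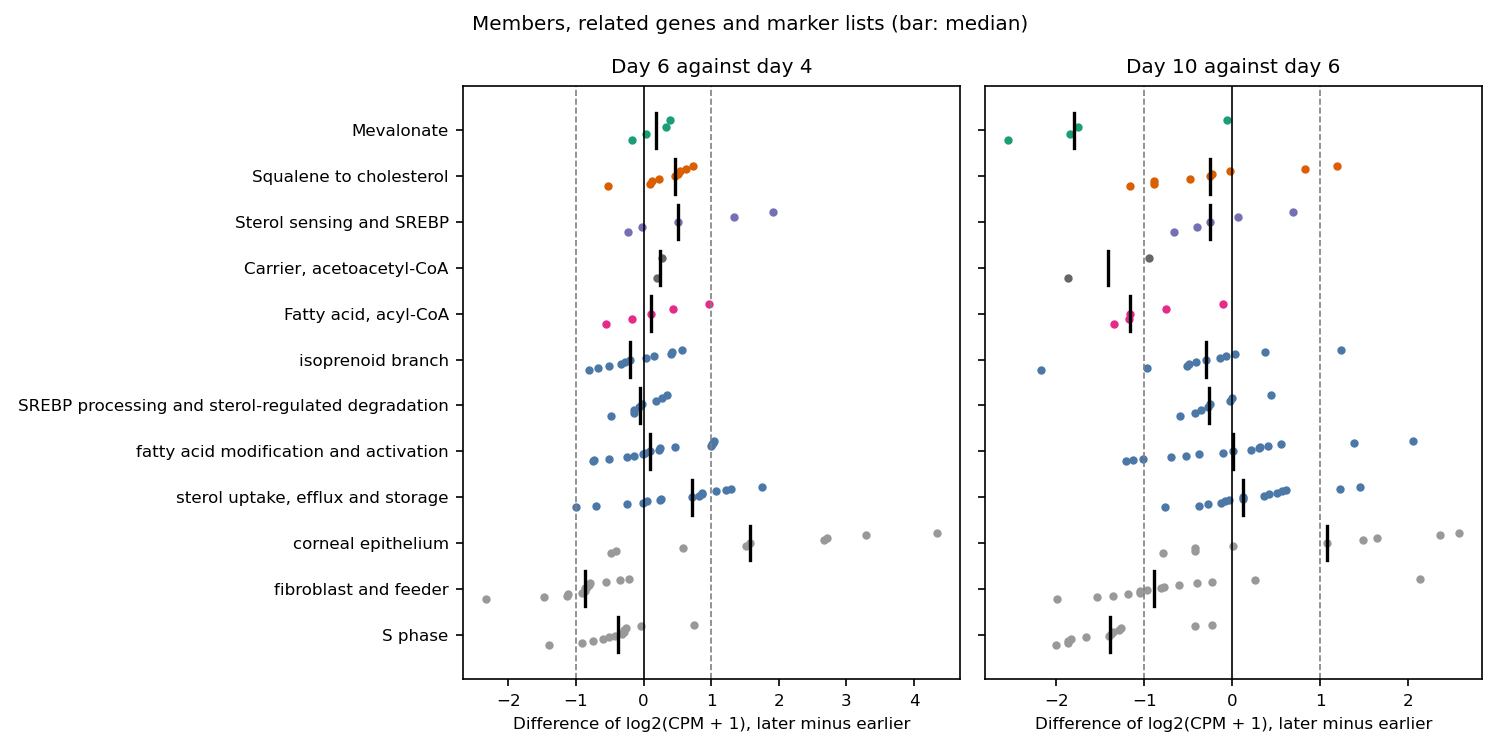
Difference of log2(CPM + 1), later minus earlier day, for each measured gene of the 5 member groups, 4 lists of related genes and 3 marker lists; bars are list medians and dashed lines mark 2-fold. Between days 6 and 10 the mevalonate members have a median of -1.80 and the S phase genes of -1.40.

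Markers of other lipid-making cell types were read from 3 lists. All 4 hepatocyte markers were at 0 fragments in all 3 libraries, which allows up to 0.275, 0.249 and 0.283 CPM on days 4, 6 and 10, and the 3 adipocyte markers found reached at most 0.471 CPM. Of the 6 sebocyte and meibocyte markers, ELOVL3 was at 0 in all libraries and AWAT2 was at 4, 0 and 0 fragments, while the other 4 were measured. FABP4, a fatty acid carrier, was at 9.91, 9.70 and 12.2 CPM on days 4, 6 and 10, and PPARG, a nuclear receptor of lipid-storing cells, was at 2.02, 0.995 and 1.601 CPM. MGST1, a glutathione transferase, was at 25.2, 61.0 and 103 CPM, and SOAT1, also in the storage list, is given above. Their part in the results was not tested.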

How the data were processed

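RNA of 3 libraries was analysed, 1 for each stage. The tables hold fragment counts, read counts and TPM for 38696 coding sequences, per the file headers; the deposited fragment counts are expected counts, many of them fractional, and the deposited TPM sums to just under 1e6 per library. The submitters' processing notes name OryCun2.0 as the genome build; the sources used here do not give the aligner, counter or strand setting. The RefSeq gene table is of assembly mOryCun1.1 and was used for names and neighbours only.

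Fragments were summed per gene name, rounded, and scaled with TMM factors of 1.071, 0.958 and 0.974 (edgeR 4.0.16 in R 4.3.3). The code that makes the 2-fold calls was run first on simulated counts with known changes. Those changes were larger than 2-fold and set only in well-expressed genes, with counting noise alone. That run therefore does not test calls near 2-fold or calls of low genes. Members and lists were chosen with earlier results of these data known. Context genes were named by rule: up to 2 per direction with the largest 2-fold change between days 4 and 10, at 10 CPM or more. Alternatives were other scalings (library totals, DESeq2 1.42.0 size factors, TPM), pseudocounts, minimums, fold thresholds and the highest coding sequence. No promoter or protein sequence was used here.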

Additional observations from a re-analysis of the deposited data

How the results depend on the processing

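With 1 library per stage no library could be left out, and no paired analysis was possible because no stage has replicates. No member that rose or fell changed direction under any alternative run. Of the 11 alternatives, the median difference between days 4 and 6 changed sign under the deposited TPM, to -0.0279, where the median of all genes was -0.30; 18 of 25 members still lay above that median, against 19 with CPM. Between days 4 and 10 the median was -0.83 with TPM and, adding IDI1 and CYP51A1, an alternative chosen after seeing the data, -0.75. With a pseudocount of 5, 1 member rose by day 6 and INSIG1 was lost. At 1.5-fold, 5 members rose by day 6, and 3 rose and 13 fell after it. At 4-fold, 0 rose by day 6, 0 rose and 1 fell (FDPS) after it, and 1 rose and 2 fell over the whole interval. The other 81 counts and medians of the list stayed within 1.5-fold of the reported count or within the spread set for a median. Among these is the count of members that fell between days 4 and 10, which was 8, 11 without TMM factors and 12 with TPM. With no minimum or a minimum of 5 CPM, no value, count or median of the members could change. With IDI1 and CYP51A1 added, no single value could change. Of 675 values of single members, 75 under each of these settings, 605 stayed within their counting interval and 70 moved beyond it. The sign changed in 16 of them, 0 of which had passed 2-fold: 10 with TPM (between days 4 and 6 in HMGCS1, FDPS, FDFT1, LSS, SC5D, ACAT2 and ACLY, after day 6 in INSIG1, and between days 4 and 10 in PMVK and SREBF1), 5 without TMM factors (HMGCS1, LSS, SC5D and ACLY by day 6, SREBF1 over the whole interval) and 1 with the highest coding sequence (PMVK after day 6). Depth limits PMVK, TM7SF2, STARD4, INSIG1, INSIG2 and ELOVL6, which had 96 or fewer fragments in at least 1 library.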
